A study of Mus musculus with 24 samples.

Results

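Ribosome-bound RNA of hippocampal excitatory neurons was compared between 3 naive knock-in mice and 3 naive control mice. The comparison takes 6 of the 24 libraries of the series and the 12789 of 51733 genes that had at least 1 CPM (counts normalised to library size) in at least 3 of those 6. Conditional knock-in (cKI) mice carry eIF2α with alanine in place of its phosphorylated serine on both alleles (A/A), together with a floxed transgene of normal eIF2α (fTg) that Cre recombinase removes. Cre was driven by the CaMKIIα promoter, which is active in excitatory forebrain neurons. Control mice are labelled as carrying CaMKIIα-Cre, so Cre itself was present in both groups, and their eIF2α alleles are not given in the labels. All were C57BL/6 males of 2 to 3 months, and naive means that they had not been through fear conditioning. Both groups carry RiboTag, a Cre-activated HA-tagged ribosomal protein Rpl22. Tagged ribosomes were pulled down with an anti-HA antibody from a lysate that pooled the hippocampi of 1 mouse. The same lysates gave 6 naive input libraries, and 6 further pulldowns came from mice of both genotypes 1 h after conditioning.

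The factor eIF2 brings the initiator methionine tRNA to the ribosome. Under stress, kinases phosphorylate its α subunit, which slows the exchange factor eIF2B and with it most translation. Messages with upstream reading frames, above all that of the transcription factor Atf4, are then translated more. Atf4 in turn switches on genes for amino acid uptake and synthesis, and the α subunit with alanine at the phosphorylated position cannot start this response. In the hippocampus the pathway is known as a brake on the formation of long-term memory.

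Total counts were 32.8 to 39.3 M in 5 of the 6 naive pulldowns and 43.5 M in control library 2, and each library came from a separate mouse by its label, so that p-values measure the spread between 3 mice a group. The excitatory kinase gene Camk2a was at 4780, 3100 and 4870 CPM in cKI libraries 1 to 3 and at 4460, 4520 and 4860 CPM in control libraries 1 to 3. All 15 excitatory neuron markers tested were detected in every library, and their summed level was 12600 to 14000 CPM in cKI and 12700 to 13400 CPM in control pulldowns. Single markers differed within that sum, from -0.76 to 0.81 on the log2 scale (cKI minus control). Of the 15, 2 rose, Neurod2 by 0.32 and Bhlhe22 by 0.81 (edgeR adjusted p 0.033 and 0.041), and 3 fell, among them Fezf2 by 0.76 and Slc17a6 by 0.72 (edgeR adjusted p 0.028 and 0.023). That is 13.3% of the list higher and 20.0% lower, against 1.5% and 3.06% of all genes tested. All 5 calls were lost without control library 2 or 3 (edgeR adjusted p 0.082 to 0.19), and 4, 4 and 5 of them without cKI libraries 1, 2 and 3. Gad1 of inhibitory neurons stayed at 67.2 to 107 CPM and Gfap of astrocytes at 29.2 to 61.2 CPM. Rpl22 was at 836, 566 and 924 CPM in cKI and at 654, 600 and 597 CPM in control pulldowns.

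Several features of the libraries moved with genotype. All 3 cKI pulldowns were sequenced on lane 5 of the flow cell and all 3 control pulldowns on lane 6, so within these 6 libraries lane and genotype cannot be told apart. Transcripts of dentate granule cells, the principal neurons of the dentate gyrus, were low in control libraries 2 and 3. Prox1, the transcription factor that marks these cells, was at 206, 118 and 212 CPM in cKI and at 153, 33.0 and 36.8 CPM in control pulldowns. C1ql3, which encodes a secreted synaptic protein, was at 238, 206 and 245 CPM against 173, 93.9 and 89.0 CPM. Control library 1 lay within the cKI range for Prox1 and below it for C1ql3, and control libraries 2 and 3 lay far below it for both. Of 19 granule cell markers tested, 19 had a positive log2 fold change (cKI minus control) with a median of 0.95, none passed the test, and their summed level was 2100 to 2820 CPM in cKI against 2130, 968 and 973 CPM in control libraries 1 to 3. In inputs of the same mice their median was 0.12. Markers of CA1 pyramidal cells went the other way, with 12 of 13 negative, a median of -0.48 and summed levels of 1910 to 2210 CPM in cKI against 2200, 2640 and 2770 CPM in control. In bulk RNA, fewer cells of a type and less RNA per cell cannot be told apart. The other library that stood apart was cKI library 2. Its log2 levels, relative to the average of the 6 libraries, had a median of 0.15 in the class of the shortest gene loci and -0.16 in that of the longest, out of 5 classes of equal size.

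**Figure D1:**
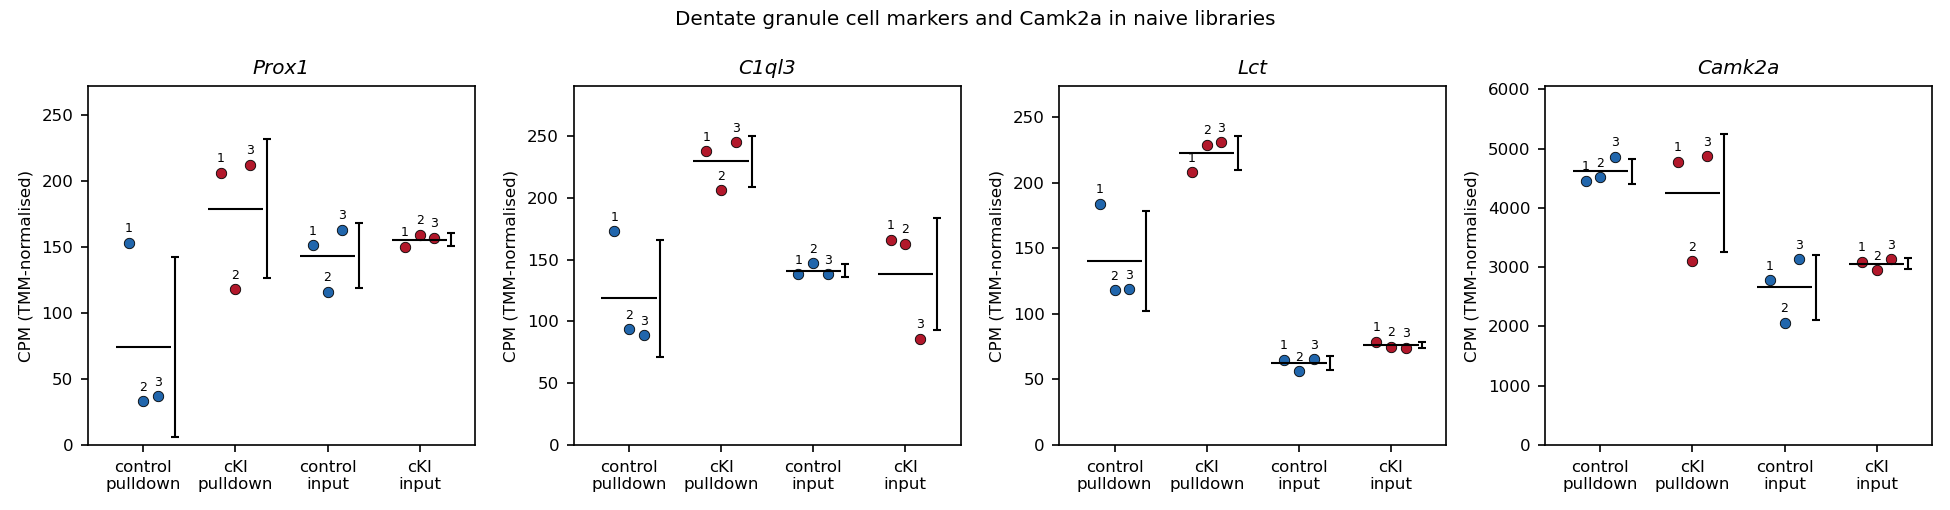
Levels in TMM-normalised CPM of 3 dentate granule cell markers and of Camk2a in the naive pulldowns and inputs, with 1 point per library (numbered by replicate), the group mean as a line and the SD (n = 3) as a bar. Prox1 was at 33.0 and 36.8 CPM in control pulldowns 2 and 3 and at 118 to 212 CPM in the other pulldowns.

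In naive cKI pulldowns 192 genes were higher and 391 lower than in control, which is 583 of 12789 genes or 4.56% (1.5% higher and 3.06% lower) at an edgeR adjusted p under 0.05. Most differences were small, with a median size of 0.51 on the log2 scale. Of the 583 genes, 299 changed by more than 0.5 and 56 by more than 1. The groups did not overlap for any of the 583, against 28.8% of all genes tested. Of the 12789 genes, 73 were below 1 CPM in all 3 libraries of 1 group and so entered the test through the other group alone. The 583 include 19 of these genes, whose calls are given as a description. The median over all 12789 genes was 0.009. Control library 1 lay closer to the cKI group than the other controls did. For the genes called lower its median excess over the cKI mean was 0.37 on the log2 scale, against 0.61 and 0.57 in control libraries 2 and 3. For the genes called higher the deficits were -0.32 against -0.5 and -0.49.

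**Figure D2:**
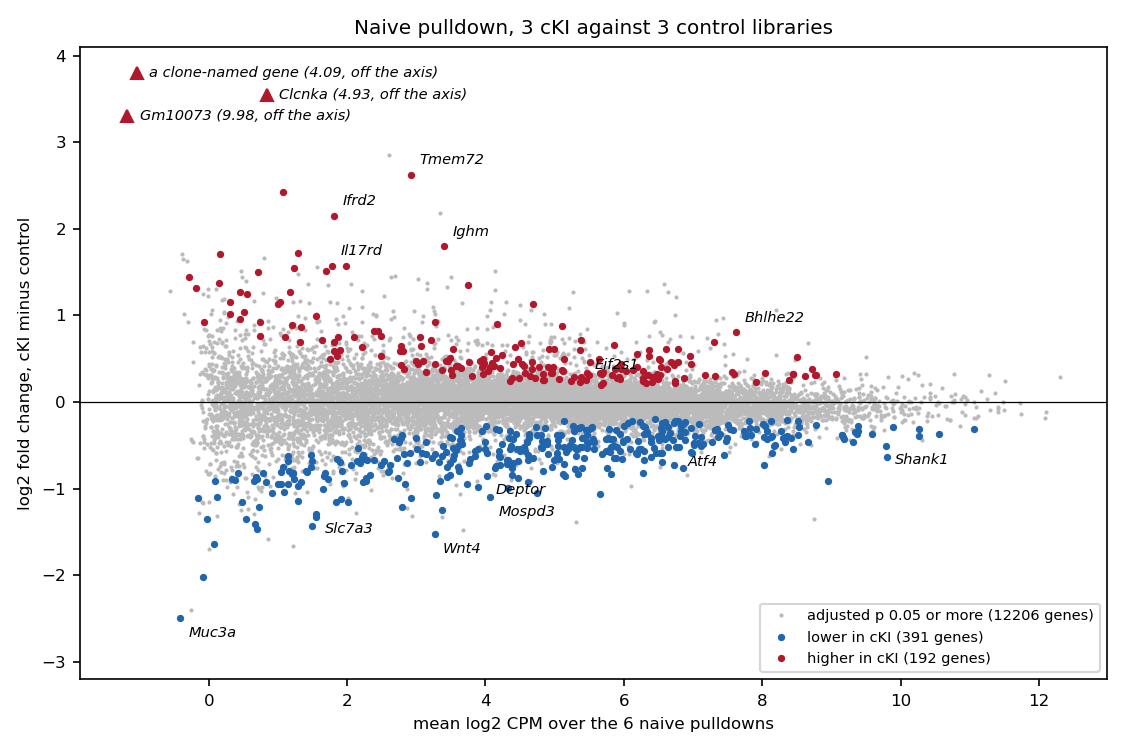
Log2 fold change (cKI minus control) against mean log2 CPM for the 12789 genes tested in the naive pulldown, with 1 point per gene and colours for the 192 genes called higher and the 391 called lower. Triangles mark 3 genes whose fold change lies beyond the axis, and Muc3a has the lowest called value at -2.50.

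The number of calls depended on single libraries and on the terms in the fit. Without control library 2, 19 genes were called, and without control library 3, 34. Without both of them, 2 genes were called. Leaving out control library 1 raised the count to 1027, and leaving out cKI libraries 1, 2 or 3 lowered it to 344, 149 or 220. With lane as a term, 1 gene was called. That term rests on the 3 cKI pulldowns at 1 h, library 1 on lane 5 and libraries 2 and 3 on lane 6. Their granule marker scores were 0.523, -0.862 and -0.245, so lane and granule marker level cannot be told apart in that term. With lane the median of the granule cell markers was -0.09, against 0.95 without it. With the granule marker score of each library as a term, 25 genes were called. All 583 genes kept their sign in both of these fits. The median of the genes called lower was -0.53 as reported, -0.42 with lane and -0.40 with the granule score, and that of the genes called higher was 0.45, 0.38 and 0.36.

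**Figure D3:**
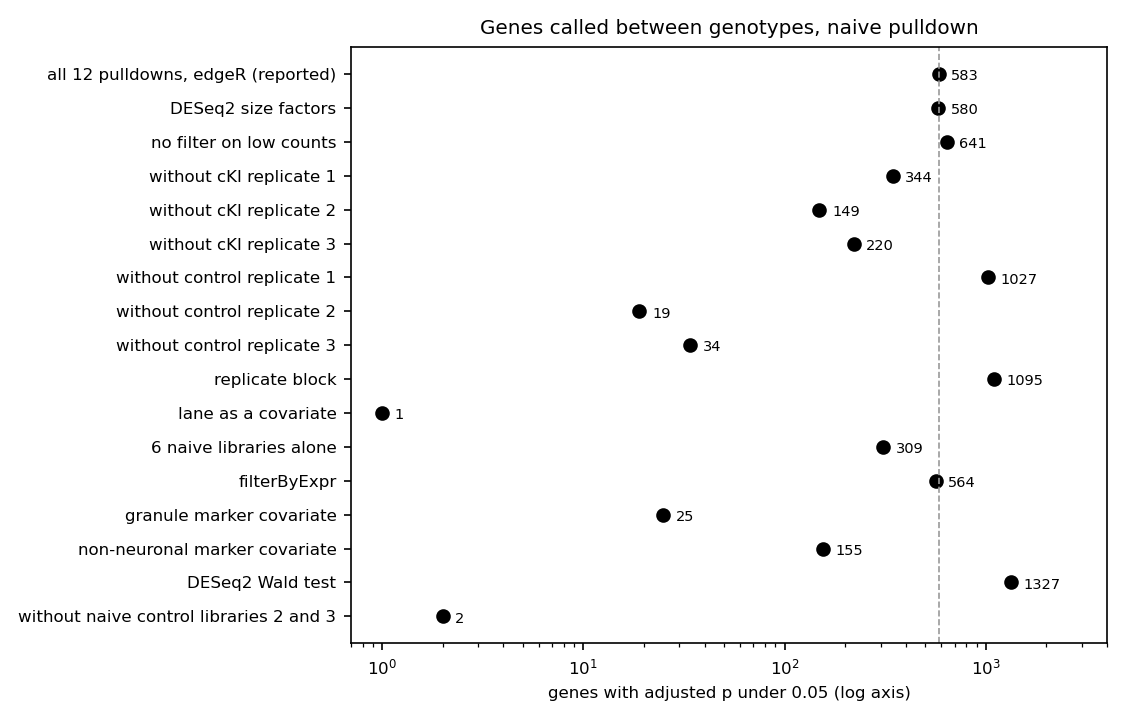
Number of genes with an adjusted p under 0.05 between naive cKI and control pulldowns (log axis) under each way of fitting, with the dashed line at the reported 583. The count falls to 34 or fewer without control library 2 or 3, with lane or with the granule score as a term.

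Transcripts of the targeted gene and of Eif5 were slightly higher in cKI pulldowns. Eif2s1, which encodes eIF2α, was at 45.1, 50.3 and 47.7 CPM in cKI and at 39.8, 40.7 and 39.5 CPM in control pulldowns, without overlap. The log2 fold change was 0.26 (SE 0.06, edgeR adjusted p 0.041). A gene count cannot separate knock-in, wild-type and transgene transcripts, so it is no check of the genotype. Eif5, the GTPase-activating factor of eIF2, was at 281, 255 and 250 CPM against 222, 225 and 222 CPM (log2 0.23, SE 0.05, edgeR adjusted p 0.033). It was also higher in the pulldowns 1 h after conditioning, at 0.37 (edgeR adjusted p 0.034). Of 12 genes tested of eIF2, its exchange factor eIF2B, Eif5 and the related factors Eif2a and Eif2d, these 2 rose and none fell, against a background of 1.5% higher, and the list median was 0.12. Among 10 eIF2α kinases, phosphatase subunits and their regulators, 1 fell (background 3.06%) and none rose. That gene was Impact, whose protein inhibits the kinase Gcn2. Impact was at 189, 190 and 188 CPM in cKI and at 228, 257 and 249 CPM in control pulldowns, a difference of -0.37 on the log2 scale (SE 0.07, edgeR adjusted p 0.017). Without control library 2 or 3 the calls of Eif2s1, Eif5 and Impact were lost, with edgeR adjusted p of 0.082 to 0.16. Eif2s1 and Eif5 were also lost without cKI library 2 (edgeR adjusted p 0.09 and 0.051), and 1 of them without cKI library 1 or 3 or control library 1.

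Atf4 messenger RNA and several genes that Atf4 is known to activate were lower on cKI ribosomes. The element through which Atf4 is known to act on many of these genes reads TGATGNAA or, on the other strand, TTNCATCA. Either form was present in 10 of the 38 genes of the 3 Atf4 target lists and the partner list that have a window in the RefSeq promoter table (26.3%), against 2.6% of all 9625 tested genes with a window. Each window searched holds 250 bases before to 50 bases after the start of a gene. The stretches below, which run no further than the start or the end of the element, show the element in 1 gene that fell and in 2 that did not pass the test, 5′ to 3′ on the gene's strand in GRCm38.p6, with the element in capitals. A match of letters is a description and shows no binding.
Slc1a4, chr11:20332710-20332757, minus strand: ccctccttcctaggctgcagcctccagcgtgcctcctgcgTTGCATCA
Chac1, chr2:119351009-119351096, plus strand: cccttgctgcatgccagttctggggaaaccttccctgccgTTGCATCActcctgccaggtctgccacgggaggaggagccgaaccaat
Asns, chr6:7693210-7693272, minus strand: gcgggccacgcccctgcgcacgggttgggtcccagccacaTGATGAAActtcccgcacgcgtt
Of the 6 genes of these lists that fell, 5 have a window, and of these Slc1a4 alone holds the element.

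Atf4 was at 87.5, 99.7 and 92.4 CPM in cKI and at 119, 139 and 143 CPM in control pulldowns. Every cKI library lay below every control library, and the log2 fold change was -0.52 (SE 0.10, edgeR adjusted p 0.02). Inputs of the same mice differed by -0.33 (edgeR adjusted p 0.021). At 1 h the pulldown difference was -0.34 and did not pass the test (edgeR adjusted p 0.52). With the granule score as a term it was -0.34 (edgeR adjusted p 0.14), and the call was lost without control library 2 or 3 or cKI library 3 (edgeR adjusted p 0.11, 0.087 and 0.051). Atf4 was the only 1 of 11 genes in the list of Atf4 and its partner transcription factors that passed (9.09%). It was also the only 1 of 17 transcripts listed for eIF2α-sensitive upstream reading frames to do so (5.88%). Both shares rest on this same gene, and 3.06% of all genes tested were called lower. The upstream reading frame list had a median of -0.01, with 7 positive and 10 negative.

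Amino acid transporters of the Atf4 program fell most among its target lists. Of 9 tested, 4 fell and none rose, against a background of 3.06% lower, and the list median was -0.36. Slc7a3, a transporter of arginine and lysine, was at 1.79, 1.85 and 1.88 CPM in cKI and at 4.13, 5.10 and 4.36 CPM in control pulldowns. Its log2 fold change was -1.30 (SE 0.18, edgeR adjusted p 0.0049), and it passed the test in all 6 fits that left out 1 library. Slc1a4, which carries alanine and serine, was at 32.8, 33.5 and 32.0 CPM against 40, 45.4 and 47.5 CPM (log2 -0.44, SE 0.08, edgeR adjusted p 0.019). Slc6a9, the glycine transporter GlyT1, was at 6.31, 6.94 and 8.14 CPM against 9.02, 11.2 and 12.3 CPM (log2 -0.60, SE 0.15, edgeR adjusted p 0.04). Slc7a1, a second carrier of basic amino acids, was at 41.0, 30.6 and 38.6 CPM against 42.4, 50.8 and 53.0 CPM (log2 -0.41, SE 0.11, edgeR adjusted p 0.049). None of the 4 overlapped, though control library 1 of Slc7a1 lay just above cKI library 1. The calls of Slc1a4, Slc6a9 and Slc7a1 were lost without control library 2 or 3 (edgeR adjusted p 0.087 to 0.2). Without cKI library 1, 2 or 3, 1, 2 and 2 of the 4 were lost. All 4 calls, that of Slc7a3 included, were lost with the granule score as a term (edgeR adjusted p 0.054 to 0.29) and with lane (edgeR adjusted p 0.7 to 0.72). In inputs the list median was -0.09 and none of the 9 passed.

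Genes of serine, folate, proline and asparagine synthesis moved less. Mthfd2, a mitochondrial folate enzyme, was the only 1 of 13 to fall (background 3.06%), at 6.49, 6.08 and 5.63 CPM in cKI against 7.93, 9.41 and 10.1 CPM in control pulldowns. The log2 fold change was -0.59 (SE 0.11, edgeR adjusted p 0.02), and the call was lost without control library 2 or 3 or cKI library 2 or 3 (edgeR adjusted p 0.11, 0.089, 0.051 and 0.057). Asns, the asparagine synthetase, was at 120, 130 and 123 CPM against 128, 134 and 135 CPM, so the groups overlapped (log2 -0.09, edgeR adjusted p 0.38). In inputs Asns fell by 0.21 on the log2 scale (edgeR adjusted p 0.042), and 5 of the 13 genes of the list were lower there, against 0.688% of all genes tested in inputs. Chac1, which degrades glutathione, was at 3.76, 4.20 and 4.85 CPM against 5.65, 7.93 and 7.13 CPM, a log2 difference of -0.69 that missed the threshold (edgeR adjusted p 0.052). None of 11 stress regulators of the program passed, and their median was 0.00. Ddit3, a factor of the partner list, and Ppp1r15a, a phosphatase subunit for eIF2α, had log2 values of 0.05 and -0.11 and did not pass. None of 20 aminoacyl-tRNA synthetases passed, with a median of 0.03.

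**Figure D4:**
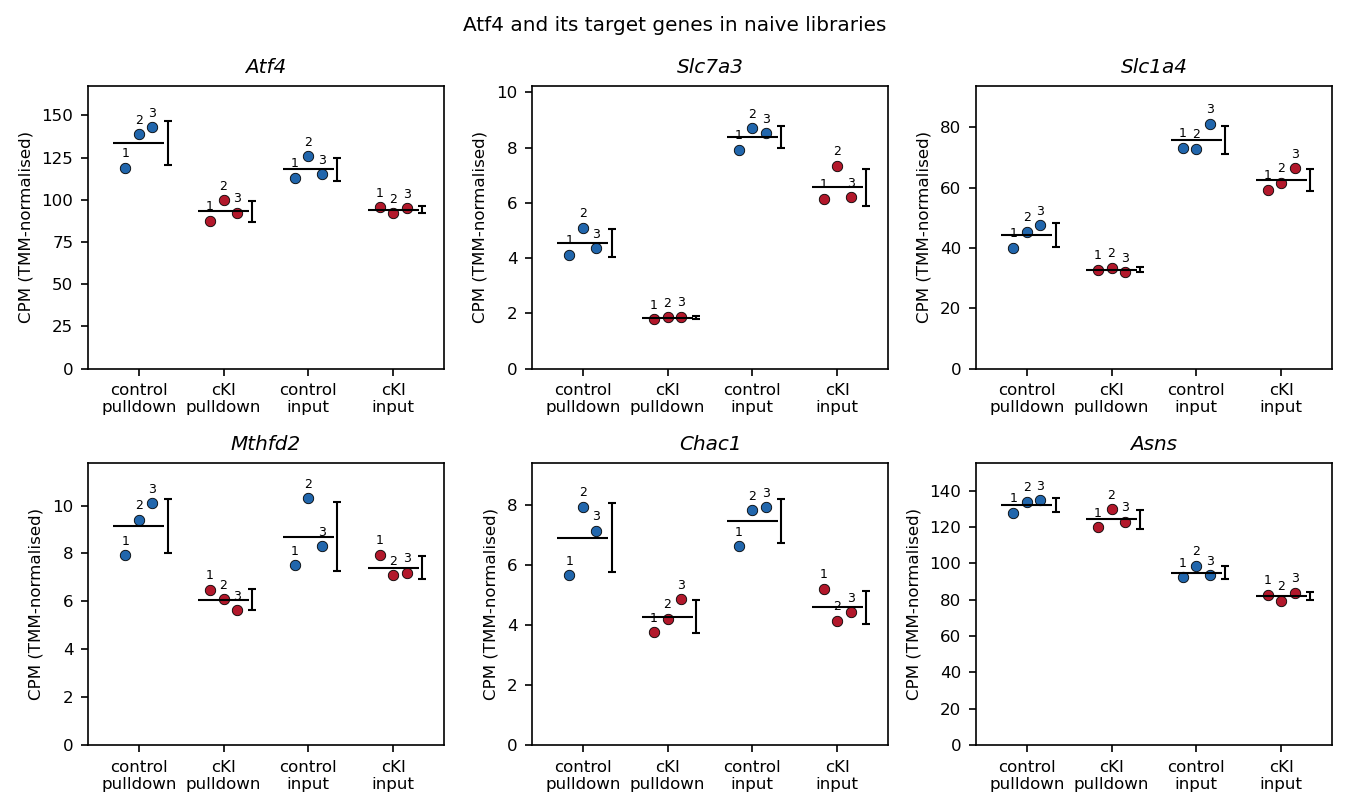
Levels in TMM-normalised CPM of Atf4 and 5 of its target genes in naive pulldowns and inputs, with 1 point per library, the mean as a line and the SD (n = 3) as a bar. Slc7a3 sits at 1.79 to 1.88 CPM in the 3 cKI pulldowns and at 4.13 to 5.10 CPM in the 3 control pulldowns, whereas Asns overlaps between the pulldowns.

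Immediate-early genes, which neurons transcribe within minutes of activity, included a few calls in naive cKI pulldowns. Of 22 transcription factors of this class, 4 fell (18.2%, against 3.06% of all genes tested) and none rose. The median was -0.32, and 15 of the 19 with a negative log2 fold change did not pass the test. Nr4a2, a nuclear receptor, was at 76.8, 68.5 and 75.4 CPM in cKI and at 112, 118 and 128 CPM in control pulldowns (log2 -0.70, SE 0.15, edgeR adjusted p 0.029). Klf6, a zinc finger factor, was at 22.8, 23.6 and 23.7 CPM against 29.4, 35.3 and 36.5 CPM (log2 -0.53, SE 0.09, edgeR adjusted p 0.015). Fosb and Egr3, members of the Fos and Egr families, fell by 0.59 and 0.42 (edgeR adjusted p 0.047 and 0.05 after rounding). Groups did not overlap for any of these 4 genes. Fos itself was at 5.31, 8.25 and 8.76 CPM against 15.6, 10.1 and 17.0 CPM. Its log2 difference of -0.93 did not pass (SE 0.29, edgeR adjusted p 0.093), although each cKI library was below each control library. Npas4 (-0.87, edgeR adjusted p 0.12) and Arc (-0.62, edgeR adjusted p 0.18) did not pass either. The 4 calls were lost without control library 2 or 3 (edgeR adjusted p 0.074 to 0.19), and 3 of them without each of the cKI libraries. In inputs none of the 22 genes passed and their median was -0.15.

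Dusp1, a phosphatase that switches off MAP kinases, fell most among 29 signalling and synaptic effectors of the immediate-early class. Dusp1 was at 7.74, 7.88 and 9.48 CPM in cKI and at 16.9, 13.8 and 14.4 CPM in control pulldowns (log2 -0.84, SE 0.15, edgeR adjusted p 0.017). Control library 1 was the highest of the controls for this gene. The other gene of the list to fall was Plk3, a kinase of the cell cycle and stress, at -0.43 (edgeR adjusted p 0.033). These 2 of 29 are 6.9% of the list, against 3.06% of all genes tested, and the median of the list was -0.12. Both calls were lost without control library 2 or 3 (edgeR adjusted p 0.065 to 0.16) and without cKI library 2 (0.052 and 0.055), and 1 of them without cKI library 1 or 3. With the granule score as a term both were lost too (edgeR adjusted p 0.099 to 0.24). The palindrome TGACGTCA, through which the activity-dependent factor CREB binds DNA, was present in the windows of 4 of 39 genes of the 2 immediate-early lists (10.3%) against 3.71% of tested genes with a window. Of 5 such genes that fell and have a window, Dusp1 alone holds it. It is shown beside that of Plk2, a related kinase gene that did not pass the test (-0.09), in the same build and with the palindrome in capitals.
Dusp1, chr17:26508568-26508655, minus strand: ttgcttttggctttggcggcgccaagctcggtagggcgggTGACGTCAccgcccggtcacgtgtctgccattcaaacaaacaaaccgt
Plk2, chr13:110394942-110395029, plus strand: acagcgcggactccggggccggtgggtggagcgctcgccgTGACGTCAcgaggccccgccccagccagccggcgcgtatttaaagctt

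Of 40 postsynaptic scaffolds and plasticity kinases, 5 fell and 1 rose (background 3.06% and 1.5%), with a median of -0.14 against 0.06 in inputs. Shank1, a scaffold that links glutamate receptors to the spine, was at 765, 646 and 845 CPM in cKI and at 895, 1080 and 1220 CPM in control pulldowns (log2 -0.50, SE 0.11, edgeR adjusted p 0.031). Shank3 was at 254, 238 and 242 CPM against 291, 324 and 355 CPM (log2 -0.40, SE 0.08, edgeR adjusted p 0.021). The kinase genes Prkcb and Limk1 fell by 0.41 and 0.38. Homer3, an adaptor of metabotropic receptors, rose by 0.42 on the log2 scale, from 86.3 to 96.8 CPM in control to 109 to 137 CPM in cKI pulldowns (edgeR adjusted p 0.038). All 6 calls were lost without control library 2 or 3 and without cKI library 2 (edgeR adjusted p 0.055 to 0.2). Without cKI library 1 or 3, 4 were lost, and without control library 1, 1 was.

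Among receptors, 2 of 30 glutamate receptor and auxiliary subunit genes fell (6.67%, against a background of 3.06%) and none rose, with 22 negative and a median of -0.16. Grm4, a presynaptic metabotropic receptor, was at 15, 14.7 and 15 CPM in cKI and at 23.3, 24.5 and 21.4 CPM in control pulldowns (log2 -0.63, SE 0.11, edgeR adjusted p 0.016). Cacng3, an auxiliary subunit of AMPA receptors, was at 65.2, 73.2 and 75.3 CPM against 90.1, 91.9 and 92.8 CPM (log2 -0.36, SE 0.08, edgeR adjusted p 0.032). For both, the 3 controls lay close together and above all cKI libraries. Of 12 GABA-A receptor subunits 2 fell (16.7%, against 3.06%), Gabrg3 by 0.73 and Gabra3 by 0.66 (edgeR adjusted p 0.024 and 0.044). Without control library 2 or 3 these 4 calls were lost (edgeR adjusted p 0.052 to 0.19). Cacng3, Gabrg3 or Gabra3 also lost theirs without single cKI libraries, where 2 to 3 of the 4 calls were lost.

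Voltage-gated channels set the excitability of neurons. Of 27 sodium, calcium and HCN channel genes, 6 fell (22.2%, against a background of 3.06%) and none rose, with 22 negative and a median of -0.17 against 0.02 in inputs. Cacna1g, a T-type calcium channel, was at 41.4, 38.4 and 45.8 CPM in cKI and at 60.2, 69.6 and 61.4 CPM in control pulldowns (log2 -0.61, SE 0.12, edgeR adjusted p 0.021). The groups did not overlap. Cacna1i, of the same channel type, fell by 0.49 (edgeR adjusted p 0.017). Hcn4, Scn1a and Cacnb2 fell by 0.90, 0.52 and 0.34. Of 52 potassium channel genes, 23 were positive and 29 negative, with a median of -0.04. The 3 that fell (5.77%) and the 1 that rose (1.92%) are shares near the background of 3.06% and 1.5%. Kcnt1, a sodium-activated potassium channel, was at 20.5, 20.3 and 23.9 CPM against 33.1, 42.9 and 36.5 CPM (log2 -0.80, SE 0.16, edgeR adjusted p 0.023). Kcnk3, a background potassium channel, fell by 0.53. Kcng2 rose by 0.60 on the log2 scale, at 50.4, 48.4 and 54.1 CPM in cKI against 41.8, 29.9 and 29.3 CPM, and there control libraries 2 and 3 lay lowest, as they did for the granule cell markers. The 10 channel calls were all lost without control library 2 or 3 (edgeR adjusted p 0.082 to 0.22). Without cKI libraries 1, 2 and 3, 6, 8 and 6 of them were lost.

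Signalling genes outside the synapse included some of the larger differences. Wnt4, a secreted Wnt ligand, was at 3.94, 5.66 and 7.72 CPM in cKI and at 12.6, 17.2 and 20.0 CPM in control pulldowns (log2 -1.52, SE 0.23, edgeR adjusted p 0.0095). It was lower at 1 h as well, by 1.5 (edgeR adjusted p 0.046), whereas the input difference was -0.20 (edgeR adjusted p 0.37). Wnt7a fell by 0.66 on the log2 scale, and the other 16 of the 18 Wnt ligands, receptors and antagonists tested did not pass. Thus 11.1% of that list fell, against 3.06% of all genes tested. Deptor, an inhibitor of the kinase mTOR, was at 12.8, 12.8 and 10.8 CPM in cKI and at 20.6, 24.3 and 20.7 CPM in control pulldowns (log2 -0.85, SE 0.10, edgeR adjusted p 0.003). Deptor kept its call in all 6 fits that left out 1 library and with the granule score as a term (log2 -0.74, edgeR adjusted p 0.026). In inputs it did not pass (-0.08, edgeR adjusted p 0.73). Of the other 23 mTOR genes tested, Depdc5, of the complex that restrains mTOR when amino acids are short, fell (-0.29) and the sestrin gene Sesn1 rose (0.50). With Deptor included, 8.33% of the mTOR list fell and 4.17% rose, against 3.06% and 1.5% of all genes tested. Vgf, which encodes a secreted neuropeptide precursor, was at 215, 261 and 221 CPM in cKI against 307, 363 and 377 CPM (log2 -0.59, SE 0.12, edgeR adjusted p 0.022), and was lower in inputs too (-0.42, edgeR adjusted p 0.0052). Ntrk2, the receptor of Bdnf, fell by 0.42 and Ntrk3 rose by 0.31, while Bdnf did not pass (0.11, edgeR adjusted p 0.55). Of the 20 neuropeptide, neurotrophin and Trk receptor genes tested, 10.0% fell and 5.0% rose, against the same background. Without control library 2 the calls named in this paragraph, other than that of Deptor, were lost (edgeR adjusted p 0.059 to 0.19). Without control library 3 they were lost too, save for Wnt4 (edgeR adjusted p 0.1 to 0.16). Without cKI libraries 1, 2 and 3, 4, 5 and 5 of the 8 calls were lost.

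The named genes with the largest differences (mean log2 CPM of at least 2, no overlap between groups) included adhesion, receptor and vesicle genes among those that fell. Vwc2l, a secreted relative of the BMP antagonist brorin, was at 7.67, 6.08 and 6.48 CPM in cKI and at 16.8, 17.6 and 13.5 CPM in control pulldowns (log2 -1.25, SE 0.19, edgeR adjusted p 0.0095). Syt2, a calcium sensor of fast transmitter release, was at 19.3, 17.5 and 19 CPM against 39.2, 43.6 and 32.6 CPM (log2 -1.05, SE 0.16, edgeR adjusted p 0.0095). Rab3b, a vesicle GTPase, fell by 1.21, and Cbln2, a secreted organiser of synapses, by 1.07. Cdh4 and Cdh6, which encode cadherins, fell by 1.10 and 0.93, and Met, the receptor of hepatocyte growth factor, by 1.15. Plxdc1 was at 4.70, 5.56 and 5.04 CPM against 9.96, 10.6 and 8.98 CPM (log2 -0.95, SE 0.12, edgeR adjusted p 0.0037). In each of these genes all cKI libraries lay below all control libraries, and control library 1 was not the nearest control for Vwc2l, Syt2 or Plxdc1, whose lowest control was library 3. Of the genes named in this paragraph, Rab3b alone also passed in inputs (-0.75, edgeR adjusted p 0.011). Leaving out control library 2 or 3 ended 13 and 9 of the 15 calls (edgeR adjusted p 0.059 to 0.18 and 0.066 to 0.098), and leaving out cKI libraries 1, 2 or 3 ended 3, 9 and 6.

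Among the 15 named genes that rose most, Tmem72, a membrane protein gene, was at 25.5, 18.2 and 13.5 CPM in cKI and at 2.66, 3.30 and 3.29 CPM in control pulldowns (log2 2.62, SE 0.43, edgeR adjusted p 0.019). Its cKI libraries spread widely, and at 1 h the difference was 1.20 (edgeR adjusted p 0.74). Ighm, the heavy chain gene of IgM, was at 17.5, 18 and 24.3 CPM against 4.38, 5.83 and 6.99 CPM (log2 1.80, SE 0.20, edgeR adjusted p 0.0024) and also passed at 1 h (1.70, edgeR adjusted p 0.0079). Bhlhe22, a transcription factor of forebrain neurons, was at 280, 225 and 285 CPM against 193, 128 and 130 CPM (log2 0.81, SE 0.19, edgeR adjusted p 0.041). Cyp7b1, an oxysterol and neurosteroid hydroxylase, was at 46.1, 49.2 and 46.1 CPM against 33.2, 20.9 and 22.6 CPM (log2 0.88, SE 0.17, edgeR adjusted p 0.022). For Bhlhe22 and Cyp7b1, as for Krt9 (1.35) and Macrod1 (0.92), control libraries 2 and 3 were the lowest, the same libraries that were low in granule cell markers. With the granule score as a term the values became 0.40 for Bhlhe22, 0.54 for Cyp7b1, 0.68 for Krt9 and 0.62 for Macrod1, and Krt9 passed there (edgeR adjusted p 0.023). Tubb2b, a β-tubulin, rose by 0.72 and Ddo, which oxidises D-aspartate, by 0.71. Leaving out control library 2 or 3 ended 14 of the 15 calls (edgeR adjusted p 0.082 to 0.19), leaving out cKI libraries 1, 2 or 3 ended 7, 10 and 8, and leaving out control library 1 ended 1.

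Of the 583 genes, 19 passed the test in all 6 fits that left out 1 library, 5 of them higher and 14 lower. They are named here after their values were seen. Mospd3 was at 11.6, 11.1 and 11.6 CPM in cKI and at 23.2, 22.6 and 27.5 CPM in control pulldowns (log2 -1.10, SE 0.11, edgeR adjusted p 0.00084). It was lower in inputs (-1.46) and at 1 h (-1.11) as well, with edgeR adjusted p of 0.0088 and 0.00097. Ifrd2, whose product is a factor of idle ribosomes, was at 7.25, 7.33 and 7.31 CPM against 1.90, 1.73 and 1.27 CPM (log2 2.15, SE 0.21, edgeR adjusted p 0.00084). Muc3a, a membrane mucin, was at 0.394, 0.261 and 0.214 CPM against 1.29, 1.64 and 1.99 CPM (log2 -2.50, SE 0.27, edgeR adjusted p 0.0019). Muc3a stayed under 1 CPM in every cKI library, so it entered the test through the control group alone, and its call is given as a description. For Mospd3 and Ifrd2, the gap between the nearest libraries of the groups was wider than the range within either group. Il17rd, an inhibitor of FGF signalling, rose by 1.58 and passed at 1 h (edgeR adjusted p 0.046).

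Neuronal genes were also among the 19. Sorcs3, a sorting receptor of the postsynapse, was at 57.3, 57.6 and 61.1 CPM in cKI and at 89.3, 108 and 115 CPM in control pulldowns (log2 -0.83, SE 0.11, edgeR adjusted p 0.0037). Fgf11, an intracellular FGF relative, was at 23.4, 23 and 25.3 CPM against 35.6, 42.3 and 43.0 CPM (log2 -0.75, SE 0.10, edgeR adjusted p 0.0036). Sorcs3 and Fgf11 were lowest in control library 1 among the controls and still lay over 10 CPM above every cKI library. Rims4, of the active zone protein family RIM, fell by 0.54, Srgap1, a GTPase-activating protein of the Slit-Robo pathway, by 0.71, and Kremen1, a receptor of the Wnt antagonist Dickkopf, by 0.54. Cds1 and Ggps1, enzymes of phospholipid and isoprenoid synthesis, fell by 0.73 and 0.52. The others were Slc7a3, Deptor, Plxdc1, the lipoxygenase gene Alox8 (-1.0) and Sh2d5 (-0.54), which fell, and Ighm, Banp (0.62) and the gene model Gm10073, which rose. Gm10073 had 386 counts in the 3 cKI and 0 in the 3 control pulldowns, at least 142-fold higher against a floor of 3 counts over the group, and was the 1 gene called with lane as a term (edgeR adjusted p 0.039). It entered the test through the cKI group alone, so its calls are a description too. For a gene model of this kind, reads from near-identical copies cannot be assigned with certainty.

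Genes that every cell uses moved by small amounts with nearly uniform sign. Of 76 cytosolic ribosomal protein genes, 73 were positive with a median of 0.23 and none passed the test. Their median in inputs was -0.10, and their mean log2 level was 4.11, 4.49 and 4.22 in cKI and 4.1, 4.02 and 4.05 in control pulldowns, so that cKI library 2 was the highest. Nuclear genes of oxidative phosphorylation (67 of 75 positive, median 0.13) and proteasome subunits (30 of 31 positive, median 0.15) had the same library on top. For oxidative phosphorylation the mean log2 level was 6.67 in cKI library 2 and 6.32 to 6.36 in the other naive pulldowns. For the proteasome it was 6.73 against 6.39 to 6.45, so in both lists the other cKI libraries lay near the controls. Over the fits without 1 library the medians ran from 0.10 to 0.31 for ribosomal proteins, 0.01 to 0.20 for oxidative phosphorylation and 0.04 to 0.19 for the proteasome. In each of these lists the lowest median was the one without cKI library 2. The 8 tested genes of the mitochondrial genome were all negative with a median of -0.44, and none passed. Many genes of these nuclear lists are short. Over the 5 classes of the 12064 genes with a locus length, from the shortest to the longest, the median fold change was 0.08, 0.04, 0.02, -0.02 and -0.08, and the share called lower was 2.11, 1.49, 1.78, 3.9 and 6.42%. Inputs went the opposite way, from -0.09 to 0.08. Relative to the average of the 6 naive pulldowns, cKI library 2 ran from 0.15 in the shortest class to -0.16 in the longest. The medians of cKI libraries 1 and 3 ran from -0.03 to 0.04 and from -0.01 to 0.0. Those of control libraries 1 to 3 ran from -0.02 to 0.03, -0.03 to 0.05 and -0.04 to 0.05. The part of gene length in the results was not tested.

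**Figure D5:**
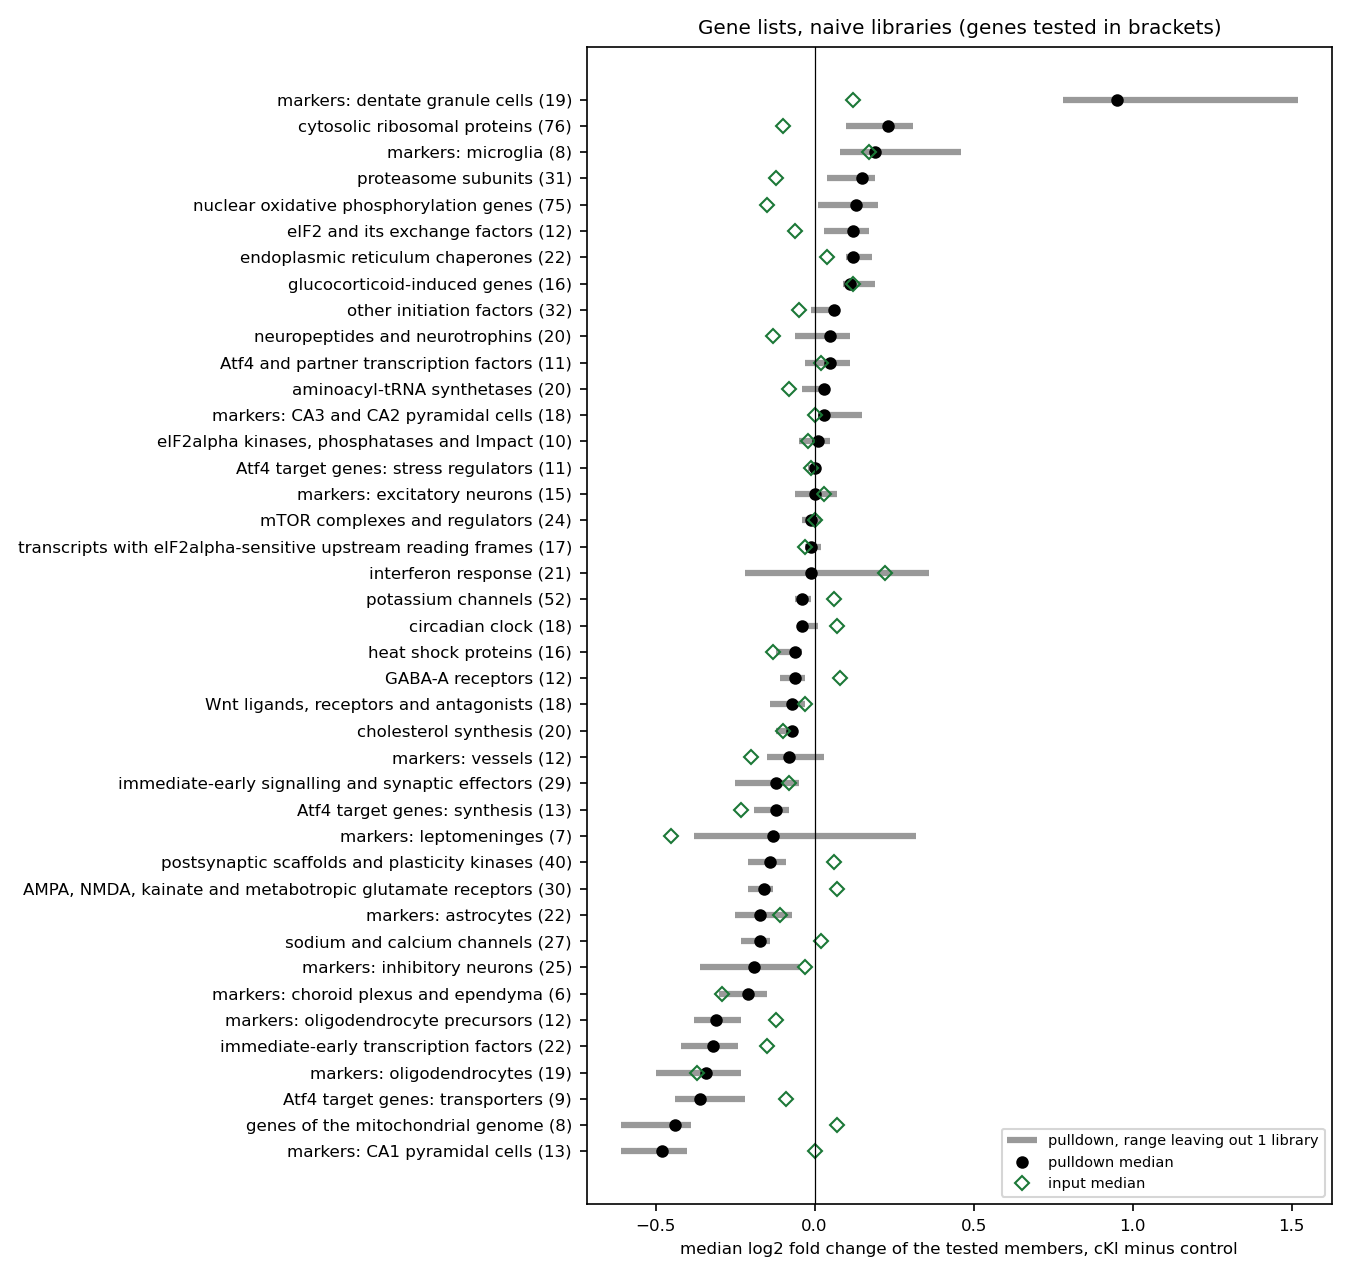
Median log2 fold change (cKI minus control) of the tested members of each gene list in naive pulldowns (filled circles), its range when 1 library is left out (grey bars) and the median in naive inputs (open diamonds). Dentate granule cell markers lie highest at 0.95 and CA1 markers lowest at -0.48.

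Stress and steroid genes held 1 or 2 calls a list, to be read against a background of 1.5% higher and 3.06% lower. Fkbp5, a cochaperone of the glucocorticoid receptor, was at 114, 118 and 116 CPM in cKI and at 102, 98.1 and 93.4 CPM in control pulldowns (log2 0.24, SE 0.05, edgeR adjusted p 0.03). Sult1a1, a sulfotransferase, was at 3.37, 2.92 and 2.95 CPM against 1.93, 1.34 and 1.73 CPM (log2 0.89, SE 0.15, edgeR adjusted p 0.016). These were the 2 of 16 glucocorticoid-induced genes that rose, and none fell. Of 22 endoplasmic reticulum chaperone and quality control genes Derl1 rose (0.24), and of 16 heat shock protein genes Hspa4l fell (-0.40). Srebf2, the transcription factor of cholesterol synthesis, was at 192, 191 and 191 CPM in cKI and at 226, 246 and 254 CPM in control pulldowns (log2 -0.34, SE 0.05, edgeR adjusted p 0.011). The other 19 genes of that list did not pass. Of 18 clock genes Arntl, which encodes the activator Bmal1, fell by 0.37 and Ciart, a repressor, rose by 0.47, and Ciart was higher in inputs as well (0.65, edgeR adjusted p 0.03). None of 21 interferon-response genes passed. The 7 calls in this paragraph were all lost without control library 2 or 3 (edgeR adjusted p 0.057 to 0.21), and 2, 5 and 4 of them without cKI libraries 1, 2 and 3.

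Markers of other cells were also detected in the pulldowns. Oligodendrocyte markers summed to 308 to 391 CPM in cKI and 429 to 447 CPM in control pulldowns, with 17 of 19 negative and a median of -0.34. Mbp, the major myelin protein gene, was the only 1 of the 19 that fell (background 3.06%), at 122, 144 and 130 CPM against 182, 187 and 177 CPM (log2 -0.46, SE 0.09, edgeR adjusted p 0.022). In inputs Mbp was at 1840 ± 146 CPM (SD, n = 3) in cKI and 2520 ± 138 CPM in control mice. There 11 of the 19 were lower (background 0.688%), Mbp by 0.45 (edgeR adjusted p 0.0088). Astrocyte markers summed to 983 to 1030 CPM in cKI and 1070 to 1310 CPM in control pulldowns, with 19 of 22 negative, a median of -0.17 and no call. None of the 25 inhibitory neuron, 12 oligodendrocyte precursor, 8 microglial or 12 vessel markers passed. Of 6 choroid plexus and ependymal markers 1 was lower, and of 7 leptomeningeal markers 1 was lower (background 3.06%). No blood marker reached the level needed for testing. No marker of these lists with a row of counts, tested or not, was at 0 in all 6 libraries. Within excitatory neurons, 4 of 13 CA1 markers were called, all lower (30.8%, against 3.06% of all genes tested). Among them were Ndst4 (-0.64, edgeR adjusted p 0.032) and Dcn (-1.33, edgeR adjusted p 0.037), a secreted proteoglycan that the leptomeningeal list holds too. Dcn was at 2.21, 1.64 and 1.77 CPM in cKI and at 2.63, 6.11 and 5.4 CPM in control pulldowns, and control libraries 2 and 3 were again the ones apart. The calls of Mbp and of the 4 CA1 genes were lost without control library 2 or 3 (edgeR adjusted p 0.087 to 0.19). The Mbp call was lost as well without cKI library 1 or 3, and 3, 4 and 4 of the CA1 calls without cKI libraries 1, 2 and 3. The part of cell composition in the other results was not tested beyond the fit with the granule score.

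The same genotype comparison in other libraries called fewer genes. In naive inputs 137 genes (1.07%) differed between genotypes (0.383% higher and 0.688% lower). Without naive control input 3, the only naive input on lane 5, the count was 122 (0.954%). Of the 583 genes called in pulldowns, 383 (65.7%) had the same sign in inputs, against 48.0% of all genes tested, and 34 were called there with the same sign. In pulldowns 1 h after conditioning 9 genes (0.0704%) were called, and 8 of these were among the 583 with the same sign. Of the 583, 408 (70.0%) had the same sign at 1 h, against 60.4% of all genes. The median of the genes called lower was -0.53 in naive pulldowns, -0.06 at 1 h and -0.04 in naive inputs. These genes were chosen by their naive pulldown values, so a smaller median in other libraries follows in part from the choice. The genotype difference itself differed between naive and 1 h pulldowns for 2 genes by edgeR. The ratio of pulldown to input differed by genotype for 0 genes by edgeR (2229 at an unadjusted p under 0.05) and for 718 without control pulldown 1. In the gene order of GRCm38.p6, 7.35% of the genes tested on chromosome 4 were called (54 of 735), the highest share of any chromosome, against 4.56% of all genes tested. The fullest windows, picked after the values were seen, held 16 other calls among the 50 tested genes on each side of Ephb2 and of Luzp1. Named genes on chromosome 4 include Wnt4 and Sh2d5 (13 such calls each), Rab3b (10), and Slc6a9 and Plk3 (6 each). The cause of this was not tested.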

How the data were processed

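RNA of 24 libraries (12 mice, 1 input and 1 RiboTag pulldown each) was made into poly(A)-selected, directional libraries and sequenced paired-end, per the labels' protocols. The authors deposited raw counts per gene (51733 genes, each a symbol with 1 Ensembl transcript) for every library. Per the submitters' processing notes cutadapt, Bowtie and DESeq2 were used. Genome build, counting tool and strand setting were not given in the sources used here, so overlapping, antisense and near-identical genes may share counts. Of the symbols, 47598 (92%) matched the name table, 26 had been turned into dates and were named by transcript, and 4 share a name.

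Total counts were 28.8 to 43.5 M per library. The 12 pulldowns were fitted together in R 4.3.3 with edgeR 4.0.16, 1 mean per group, TMM scaling and the robust quasi-likelihood test. Genes with at least 1 CPM in 3 of the 6 naive pulldowns were tested, with Benjamini-Hochberg adjustment over 12789 genes and a threshold of 0.05. Inputs were fitted likewise on the same genes. CPM printed are TMM-normalised, and SE is the log2 fold change divided by the square root of F. The cell score is the mean centred log2 CPM (prior count 2) of a marker list. The script was tested on simulated data.

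Alternatives were DESeq2 1.42.0 size factors and Wald test, other filters, the 6 libraries alone, lane, cell scores or replicate number as a term, and leaving out each library. Leaving out control libraries 2 and 3 together was chosen after seeing their marker levels. The members and gene lists were chosen with earlier results of these data known. Named genes are the 15 largest called changes in each direction (mean log2 CPM of at least 2, no overlap, no clone names), up to 4 members of each list by p, and a fixed set, of which the text prints a selection. Other genes are said to be chosen after their values were seen, or are members of a list that passed. Promoter windows come from RefSeq (GRCm38.p6). Some genes that these rules chose are not reported here. No set tests were run.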

Additional observations from a re-analysis of the deposited data

Results flagged for a closer look

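The genotype difference in the pulldown differed between naive mice and mice 1 h after conditioning for 2 of the 12789 genes tested. For Banp, which encodes a nuclear matrix protein, the naive log2 difference (0.62) exceeded that at 1 h (-0.17) by 0.79 (edgeR adjusted p 0.032). In naive pulldowns Banp was at 37.7, 39.8 and 40.8 CPM in cKI and at 27.2, 24.0 and 25.9 CPM in control libraries. For Manba, the lysosomal β-mannosidase, the naive difference (0.01) lay below that at 1 h (1.62) by an interaction of -1.62 (edgeR adjusted p 0.042). Its naive pulldowns overlapped, at 5.92, 4.93 and 5.22 CPM in cKI and at 4.54, 6.48 and 4.94 CPM in control libraries. Both calls rested on the full set of libraries: each was lost in 10 of the 12 fits that left out 1 pulldown (edgeR adjusted p 0.052 to 0.14 for Banp and 0.075 to 0.18 for Manba) and was kept without control library 1 at 1 h or naive control library 1. The pulldowns at 1 h did not follow the lane split of the naive ones, and the part of lane in either difference was not tested.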

How the results depend on the processing

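Limits are 3 mice a group, a lane that cannot be told apart from genotype in naive pulldowns, and granule cell RNA that was low in control libraries 2 and 3. The naive pulldown count of 583 (192 higher, 391 lower) became 1327 (489, 838) with the DESeq2 Wald test, 309 (79, 230) with the 6 libraries alone, 155 (45, 110) with the non-neuronal score, 25 (12, 13) with the granule score, 1 (1, 0) with lane and 2 (2, 0) without control libraries 2 and 3. Leaving out 1 library gave 19 to 1027 (5 to 442 higher, 14 to 585 lower). With the replicate number as a block it was 1095 (439, 656). Same-numbered pulldowns of the 2 genotypes correlated by 0.0656, 0.144 and 0.000591, so the numbers were not taken to pair the mice, and cKI library 3 correlated best with control library 1. DESeq2 size factors (580), no filter (641) and filterByExpr (564) stayed within 1.5 times. Naive inputs called 137, with 217 unfiltered, 83 with the replicate block and 44 to 122 leaving out 1 library. The 1 h pulldowns called 9, with 22 unfiltered, 5 with lane and 3 to 6 leaving out 1 library. The difference between naive and 1 h called 2, with 16 unfiltered and 0 to 5 leaving out 1 library. The pulldown-to-input ratio called 0, with 49 unfiltered and 0 to 718 leaving out 1 library.

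Of 98 called genes followed across settings, all kept their direction. With DESeq2 size factors, the Wald test or the block all 98 kept their call, against 70 with the 6 libraries alone, 43 with the non-neuronal score, 19 with the granule score and 1 with lane. Among the genes named that had not passed, some turned sign. With lane, Asns was at 0.04, Gad1 at -0.54, Ppp1r15a at 0.14 and Prox1 at -0.46. With the granule score, Gad1 was at -0.24, Ppp1r15a at 0.04 and Prox1 at -0.28, and with the non-neuronal score Gfap was at 0.10. Prox1 is a member of the granule score and Gfap of the non-neuronal score, so their change there follows in part from the term itself. Without control libraries 2 and 3, Gad1 was at -0.09, Gfap at 0.03 and Ppp1r15a at 0.03. Over the fits without 1 library, Bdnf ran from -0.0019 (without cKI library 2) to 0.18, Camk2a from -0.23 to 0.07 (without cKI library 2), Ddit3 from -0.06 (without control library 1) to 0.13, Gad1 from -0.0011 (without control library 3) to 0.32, Gfap from -0.34 to 0.21 (without control library 3) and Ppp1r15a from -0.20 to 0.06 (without control library 3). The causes were not tested.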
